A study of Mus musculus with 4 samples.

Results

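The cells described here are the cycling exhausted CD8+ T cells (Tex) of mouse bone marrow (BM) after stem cell transplantation (SCT). They were chosen by the authors' deposited cluster name, with no further filter, and number 1928 of the 11754 cells in the count table. Each of 4 libraries came from the pooled BM of 5 mice, sorted for CD8+ T cells and captured with a 5′ droplet kit that counts unique molecular identifiers (UMIs), 1 for each captured RNA molecule. The groups were αTIGIT with vehicle, isotype control (cIg) with lenalidomide, αTIGIT with lenalidomide, and cIg with vehicle. All recipients were adult female mice on a C57BL/6 background, WT or CRBN transgenic, a transgene with a modified cereblon that lets lenalidomide act in mouse cells. The labels do not say which group was which of these. All had been injected with Vk12653 myeloma cells before transplant, received BM and T cells from matched donors, were given αTIGIT or cIg starting at transplant and lenalidomide or vehicle from day 14, and were harvested on day 28. The libraries carry the numbers 1 to 4 with no treatment name, so no value is assigned to a treatment, and pooling the mice left 1 sample in each group.

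A dividing T cell first copies its DNA, with replication enzymes, nucleotide synthesis and new histones made under E2F control, and then condenses and separates its chromosomes with mitotic kinases, kinesins and centromere proteins. Exhausted CD8+ T cells arise under lasting antigen in tumors and chronic infection. They carry inhibitory receptors such as PD-1 and TIGIT and the factor TOX, and a part of them keeps dividing.

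Libraries 1 to 4 gave 830, 229, 347 and 522 cycling cells. These were 19.6% (95% Clopper-Pearson interval 18.4% to 20.8%), 11.4% (10.1% to 12.9%), 20.1% (18.2% to 22.1%) and 13.8% (12.7% to 14.9%) of all cells. The share was highest in libraries 1 and 3, whose intervals overlapped, and lowest in library 2. Among effector (Teff), Tex and cycling cells only, the share was 30.5%, 18.8%, 33.4% and 25.9%. Intervals cover counting error only. With 1 unnamed library per group no test between libraries was made, and because the clusters were drawn from the same counts, every difference between clusters is a description with no test.

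Cycling cells were rich in RNA. Their median UMI count was 13737, 14468, 12153 and 14801 in libraries 1 to 4, against pooled medians from 5545 in transitory Teff to 10378 in GzmA+ Tex. The median cycling cell had 3654 detected genes. The authors kept cells under 25000 UMIs, and 20.1% of cycling cells lay above 20000 against 1.43% to 10.3% in the other Teff and Tex clusters. Levels are therefore given as CPM, the UMIs of a gene scaled to a common total for each cluster and library, and as UMIs per cell where the choice of scale matters. All 4 libraries held between 15556967 and 38440687 UMIs. The libraries shared 56 barcodes, carried by 112 cells, of which 14 were cycling cells.

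The cluster was drawn from counts that include its markers, so their levels describe the label and do not check it. Mki67, which encodes the proliferation antigen Ki-67, had 893, 472, 1633 and 436 CPM in the cycling cells of libraries 1 to 4, against 69.8, 31.8, 103 and 27.0 CPM in the other 5 Teff and Tex clusters together. Pclaf, a PCNA clamp-associated factor, had 486, 609, 567 and 590 CPM against 30.5, 18.5, 35.3 and 19.9. For Birc5 (survivin), a member of the chromosomal passenger complex, the values were 391, 401, 400 and 429 CPM against 21, 13.3, 20.1 and 16.2. Top2a, the topoisomerase that untangles sister chromatids, had 657, 480, 1042 and 450 CPM against 53.4, 35.8, 65.2 and 34.2. No library of any other cluster reached the lowest cycling library for any of these genes, the nearest being 201 CPM of Mki67 in the TIGIT+ Teff of library 3. Birc5 was nearly equal in the 4 libraries, while Mki67 and Top2a were highest in library 3 and lowest in library 4. At least 3 of the 4 markers had a UMI in 86.8% of cycling cells, against 0.522% of naive (Tn) cells, 11.4% of TIGIT+ Teff and 11.9% of GzmA+ Tex, and 17 cycling cells had none. These shares were not corrected for depth, which was higher in cycling cells. At an equal 2500 UMIs, Mki67 was found in 65.4% of cycling cells, 24% of TIGIT+ Teff, 11.9% of GzmA+ Tex and 1.04% of Tn. In the GRCm38 annotation Mki67 lies on chromosome 7 from 135689784 to 135716361, Pclaf on chromosome 9 from 65890237 to 65903266, Birc5 on chromosome 11 from 117849251 to 117855743, and Top2a on chromosome 11 from 98992943 to 99024189.

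**Figure D1:**
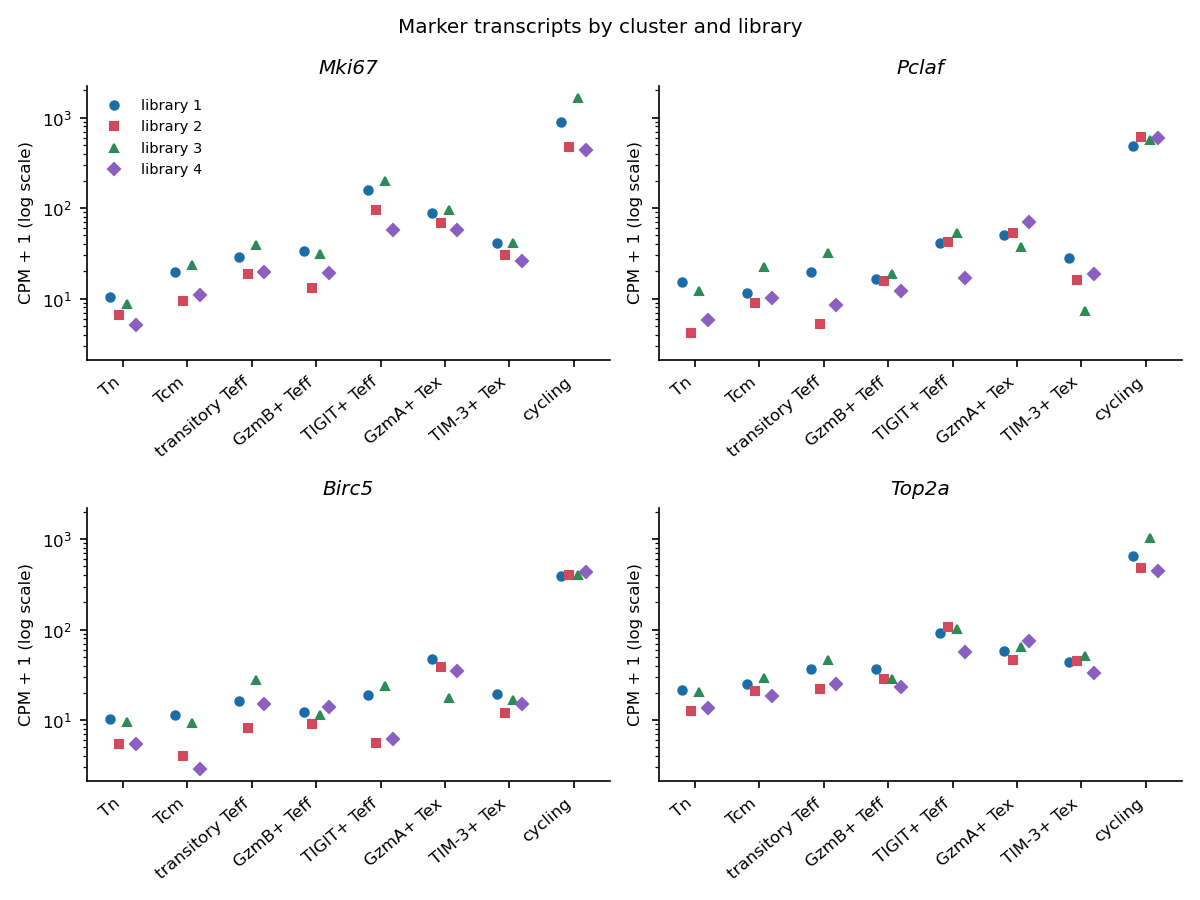
CPM plus 1 (log scale) of Mki67, Pclaf, Birc5 and Top2a in each cluster (x axis), with 1 point for each of 4 libraries. The cycling cells sit above every other cluster in each library, and the TIGIT+ Teff and GzmA+ Tex clusters come next for Mki67.

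Genes of the lineage and exhaustion parts of the label are described after each cell was thinned at random to 2500 UMIs, so that depth was equal. Cd3e was found in 93.1% of thinned cycling cells and Cd8a in 80.7%, and without thinning 0.156% carried a Cd4 UMI. The cells had been sorted as CD8+ and kept only with Cd3e/g and Cd8a expression, so these values are no check of lineage. Pdcd1, which encodes PD-1, was found in 42.0% of cycling cells (95% interval 39.8% to 44.2%), 37.7% of transitory Teff, 68.4% of TIM-3+ Tex and 2.09% of Tn. Tox was found in 50.3% of cycling cells, 48.7% of transitory Teff, 67.2% of TIM-3+ Tex and 9.99% of Tn. Havcr2 (TIM-3) was found in 8.30% of cycling cells (7.11% to 9.62%), between transitory Teff (4.07%) and TIM-3+ Tex (17.5%). Tigit was found in 42.5% of cycling cells, 49.3% of transitory Teff and 72.4% of TIM-3+ Tex, and Lag3 in 43.5%, 45.3% and 75.9%. In TIGIT+ Teff the shares were 49.8% for Pdcd1, 61.2% for Tox and 15.9% for Havcr2, each above cycling cells. Cycling cells thus stood above Tn and below TIM-3+ Tex for all 5 genes, above transitory Teff for Havcr2, below it for Tigit, and with overlapping intervals for Pdcd1, Tox and Lag3.

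Several families of cycle genes share short promoter motifs, so the promoter of a few strong markers is shown with its matches. Windows run from 250 bases before to 50 bases after the RefSeq start (GRCm38.p6), 5′ to 3′ on the strand of the gene. Capitals mark matches on either strand to the CHR element of mitotic genes (TTTGAA or TTCGAA), the CCAAT box (CCAAT) and the E2F site (TTTCCCGC, TTTGGCGC, TTTCGCGC or TTTGCCGC). The first set is of mitotic genes, and Cdk1 encodes the kinase that starts mitosis.
Mki67 promoter, chr7:135716330-135716629, minus strand: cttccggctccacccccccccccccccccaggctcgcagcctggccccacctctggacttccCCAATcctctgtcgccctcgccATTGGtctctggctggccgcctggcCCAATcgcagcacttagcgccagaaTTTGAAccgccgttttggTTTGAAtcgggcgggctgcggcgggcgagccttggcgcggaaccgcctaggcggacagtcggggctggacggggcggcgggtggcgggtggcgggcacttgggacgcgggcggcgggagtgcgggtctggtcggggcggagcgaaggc
Top2a promoter, chr11:99024140-99024439, minus strand: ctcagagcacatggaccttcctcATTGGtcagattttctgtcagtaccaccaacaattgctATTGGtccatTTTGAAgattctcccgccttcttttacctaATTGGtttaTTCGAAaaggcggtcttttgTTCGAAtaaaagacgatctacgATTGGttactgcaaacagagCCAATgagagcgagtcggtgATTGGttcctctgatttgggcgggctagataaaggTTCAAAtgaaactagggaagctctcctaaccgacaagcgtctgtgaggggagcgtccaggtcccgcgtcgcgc
Cdk1 promoter, chr10:69352863-69353162, minus strand: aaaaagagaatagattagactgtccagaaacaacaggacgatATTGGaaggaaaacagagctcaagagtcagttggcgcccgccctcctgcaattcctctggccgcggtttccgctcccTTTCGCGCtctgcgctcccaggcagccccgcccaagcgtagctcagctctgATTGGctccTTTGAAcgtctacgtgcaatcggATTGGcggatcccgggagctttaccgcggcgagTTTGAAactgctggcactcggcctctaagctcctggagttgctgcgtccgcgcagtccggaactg
The Mki67 window held 2 CHR and 3 CCAAT matches, that of Top2a 4 and 6, and that of Cdk1 2 and 3 with 1 E2F match. The second set is of genes of the replication fork: Pclaf, the helicase subunit gene Mcm5 and the checkpoint gene Clspn.
Pclaf promoter, chr9:65890073-65890372, plus strand: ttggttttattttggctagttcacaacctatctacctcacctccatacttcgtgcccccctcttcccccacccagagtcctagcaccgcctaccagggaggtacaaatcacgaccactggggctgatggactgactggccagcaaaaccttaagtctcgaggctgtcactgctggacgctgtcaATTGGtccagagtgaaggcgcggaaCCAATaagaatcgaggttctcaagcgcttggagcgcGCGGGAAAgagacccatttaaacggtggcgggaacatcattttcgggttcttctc
Mcm5 promoter, chr8:75109259-75109558, plus strand: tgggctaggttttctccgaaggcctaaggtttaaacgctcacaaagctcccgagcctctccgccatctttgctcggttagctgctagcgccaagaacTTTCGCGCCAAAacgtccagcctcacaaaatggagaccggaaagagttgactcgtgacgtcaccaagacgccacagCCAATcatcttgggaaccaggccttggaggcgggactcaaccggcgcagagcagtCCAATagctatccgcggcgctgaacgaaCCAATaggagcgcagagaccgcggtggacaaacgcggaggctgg
Clspn promoter, chr4:126556730-126557029, plus strand: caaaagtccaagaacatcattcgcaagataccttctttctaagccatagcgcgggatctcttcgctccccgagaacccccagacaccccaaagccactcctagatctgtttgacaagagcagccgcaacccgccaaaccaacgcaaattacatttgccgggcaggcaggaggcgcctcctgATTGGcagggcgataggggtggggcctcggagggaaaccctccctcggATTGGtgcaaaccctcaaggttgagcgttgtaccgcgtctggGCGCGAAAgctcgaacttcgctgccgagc
Each of these held an E2F match and no CHR match, and in Mcm5 a pair of E2F matches overlapped on opposite strands. The fourth marker had no match to any of these letters, which says nothing of the factors that bind it. Other genes searched did not all follow the 2 sets: the window of the cyclin gene Ccnb1 held 2 CCAAT and no CHR matches, and that of Rrm2 held 1 CCAAT and no E2F match.
Birc5 promoter, chr11:117848987-117849286, plus strand: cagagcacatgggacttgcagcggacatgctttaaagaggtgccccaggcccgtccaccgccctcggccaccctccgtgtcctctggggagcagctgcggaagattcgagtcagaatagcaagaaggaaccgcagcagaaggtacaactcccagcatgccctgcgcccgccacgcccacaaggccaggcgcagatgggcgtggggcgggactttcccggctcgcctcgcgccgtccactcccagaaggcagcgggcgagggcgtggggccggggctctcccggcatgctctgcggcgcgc

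Over the gene groups, 94 of 112 counted mitosis genes on the chromosomes covered had a window in the RefSeq table, and 64 of them (68.1%) held a CHR match, against 16.9% of all 6184 counted genes with a window and 21.7% of all 27025 genes in the table. CHR and CCAAT matches stood together in 53.2% of mitosis genes and 7.13% of counted genes. An E2F match was present in 26 of 67 matched replication genes and in 5.51% of counted genes, but only 78.8% of replication genes had a window, so no share is given for that list. Among genes higher in cycling cells outside every cycle list, 379 of 443 had a window and 13.5% held an E2F match. A CHR match was present in 22.2% of them, against 16.9% of counted genes and 21.7% of all genes in the table. The same windows were searched for CRE (TGACGTCA) and SP1 (GGGCGG), found in 7.45% and 73.4% of mitosis genes and in 3.93% and 71.6% of counted genes. A match is a match of letters, not a bound site.

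Most cycling cells carried the transcripts of mitosis. In cells thinned to 2500 UMIs, the median cycling cell held 32 UMIs of 120 mitosis genes and 18 UMIs of 90 replication genes, and the middle 80% of cells spanned 10 to 83.3 and 6 to 35 UMIs. The 99th percentile of Tn cells, 9 and 15.59 UMIs, was taken as the bound of each list. Of cycling cells 96.9% lay past at least 1 bound, with 98.0%, 94.8%, 97.1% and 96.2% in libraries 1 to 4. Both bounds were passed by 984 cells (51.0%), mitosis alone by 755 (39.2%) and replication alone by 130 (6.74%), leaving 59 (3.06%). These are ranges of a score, not cell types, and 220 cycling cells lay within 1 UMI of a bound. Over the cycling cells, replication and mitosis UMIs had a Pearson r of 0.021 across cells that share libraries and depth.

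Cycle-gene load past a bound was not confined to the named cluster. It was found in 538 cells of other clusters, which were 23.7% of TIGIT+ Teff, 14.0% of GzmA+ Tex, 7.48% of TIM-3+ Tex, 6.15% of GzmB+ Teff, 2.70% of transitory Teff and 1.90% of central memory (Tcm) cells. The bound itself puts 1.86% of Tn cells past it.

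**Figure D2:**
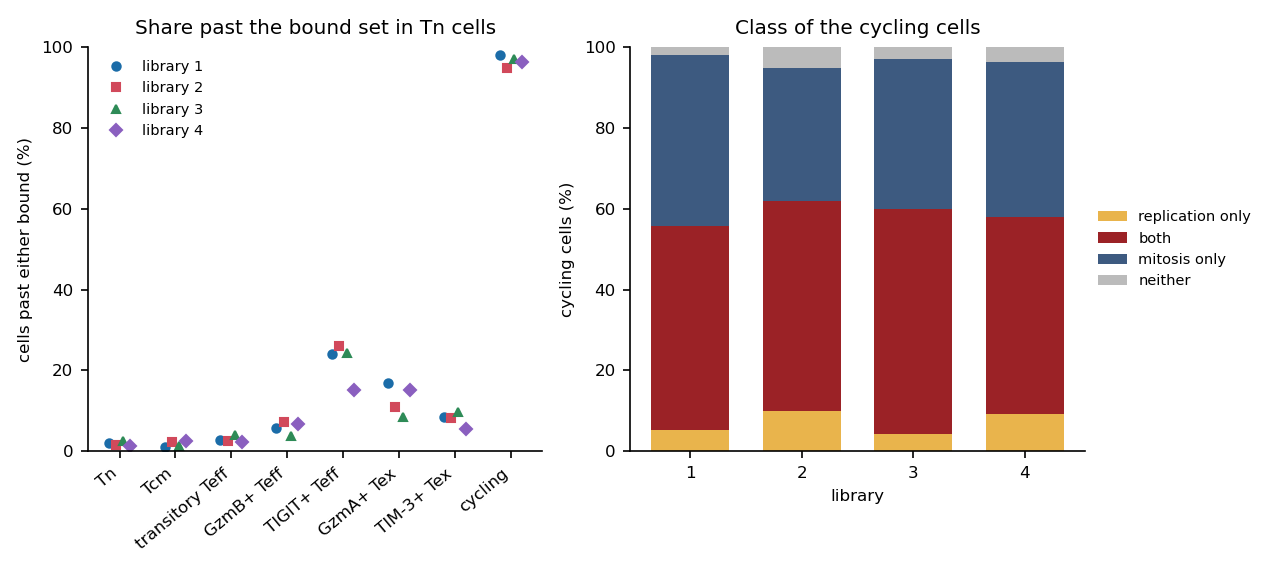
Left, percent of cells past the bound for replication or mitosis UMIs in each cluster, 1 point per library. Right, percent of the cycling cells of each library past the replication bound only, both, the mitosis bound only, or neither. From 94.8% to 98.0% of cycling cells pass, and both bounds together or mitosis alone account for most of them in each library.

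Cells past the mitosis bound alone were set beside those past the replication bound alone, which the bounds themselves separate in those 2 lists. Outside these lists, histone genes were higher by a median of 1.86 (log2) in mitosis-only cells, with library medians from 1.18 to 2.13. New histones are made while DNA is copied, so the class names state which bound was passed and not the phase of a cell. The phase of these cells was not tested. Ribosome biogenesis genes were lower by a median of -0.53 and nucleotide synthesis genes by -0.61, in each library. Glycolysis genes had a median of -0.32, negative in each library. Inhibitory receptors had a median of 0.19 and did not keep 1 direction over the libraries. The replication-only group held only 15 to 48 cells in a library, and median UMI counts were 12552 in replication-only and 14492 in mitosis-only cells.

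Across all genes, the cycling cells were compared with the other 5 Teff and Tex clusters together within each library. The log2 ratio of CPM, with 5 CPM added to both, was taken in each library and its median over the 4 used. Of 7734 genes with a mean of at least 10 CPM, 712 were higher by 1.5-fold or more in the median and in the same direction in each library (9.21%), and 258 were lower (3.34%). Only 261 of the higher genes were in the cycle lists, and 451 were not. Of the lower genes, 256 were outside the lists. Of the 712 genes 699 were above each of the 5 clusters taken singly, and of the 258 genes 179 were below each. The median of all genes was 0.018. CPM fixes the total of each group, and with a total that left out the cycle genes 804 genes were higher and 212 lower. At a 2-fold limit 4.81% of genes were higher and 0.478% lower.

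Taken against 1 cluster at a time, the share of genes higher in cycling cells at the 1.5-fold limit was 11.5% for transitory Teff, 17.3% for GzmB+ Teff, 9.42% for TIGIT+ Teff, 9.57% for GzmA+ Tex and 10.2% for TIM-3+ Tex, and 27.2% for Tn and 19.1% for Tcm. The share lower was 2.58%, 5.42%, 20.3%, 3.21% and 2.99% for the same 5 clusters, 5.29% for Tn and 6.59% for Tcm. TIGIT+ Teff was thus the only cluster of the 5 against which more genes were lower than higher.

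Nearly every measured gene of DNA replication was higher. Of 85 counted genes 78 were higher and 1 lower, with a median log2 ratio of 1.54 and library medians of 1.33 to 1.59. Clspn, which couples the fork to the checkpoint, had 137, 126, 179 and 101 CPM in libraries 1 to 4 against 16.1, 8.59, 18.0 and 7.10 (3.07). The histone chaperone gene Asf1b had a log2 ratio of 3.41 and the E2F-family repressor gene E2f8 2.75. For Clspn the lowest cycling library lay far above the highest of the others.

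The mitosis genes had the highest list median. Of 115 counted, 113 were higher and none lower, with a median of 2.76 and library medians of 2.59 to 3.12. Ccna2 (cyclin A2) had 263, 192, 306 and 242 CPM against 11, 3.56, 9.47 and 3.78, a log2 ratio of 4.47. Cdk1 had 182, 164, 196 and 188 CPM against 9.48, 7.36, 7.43 and 6.27 (3.90). The centromere gene Cenpf had a ratio of 4.36, the spindle gene Nusap1 4.22, the ubiquitin-conjugating gene Ube2c 4.16 and Tpx2, an activator of Aurora A, 3.99. The difference held against each single cluster, from 2.47 for GzmA+ Tex to 3.11 for Tcm in the list median.

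Genes of the steps particular to deoxynucleotide synthesis were higher. Rrm2, a subunit of ribonucleotide reductase, had 266, 273, 325 and 295 CPM against 14.7, 7.85, 16.3 and 7.55 (4.19). Tk1 (3.01), Tyms (2.5), Rrm1 (2.36) and Dut (1.79) were also higher. The whole list of nucleotide synthesis includes the general purine and pyrimidine enzymes. Of its 36 genes 16 were higher (44.4%, against 9.21% of all genes) and 1 lower, with a median of 0.51.

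All 31 counted replication-dependent histone genes were higher, by a median of 2.07. Hist1h1b had 775, 614, 1048 and 699 CPM in cycling cells and 94.0, 26.5, 109 and 21.1 CPM in the other Teff and Tex cells. The range of histone ratios over libraries, 1.54 to 2.5, was the widest among the cycle lists, and the summed histone level of the other clusters was higher in libraries 1 and 3 than in 2 and 4. These transcripts largely lack a poly(A) tail and are near copies of each other, so their single values are uncertain. Among chromatin and spindle proteins 23 of 24 were higher. Stmn1, a microtubule regulator, had a ratio of 3.45, the histone variant gene H2afx 2.87 and Hmgb2 2.38. Hmgb2 alone had 2726, 3054, 3634 and 3366 CPM in cycling cells against 577, 567, 709 and 527. All cycle lists together made up 5.02% of the UMIs of cycling cells (libraries 4.77% to 5.76%) and 1.13% to 1.51% in the other clusters.

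Of 29 counted genes that act as brakes on division, 4 were higher (13.8%) and 9 lower (31.0%). Over all genes these shares were 9.21% and 3.34%, so the higher share was near that of all genes. The median was -0.41, with library medians of -0.43 to -0.33, and 7 of the 29 had a ratio above 0. The higher genes were 3 that encode INK4-type inhibitors of CDK4 and CDK6, and Rbl1 (p107), a relative of the retinoblastoma protein. Cdkn2c had 91.6, 63.2, 102 and 86.4 CPM against 39.2, 35.8, 27.7 and 31.2, a log2 ratio of 1.23. Cdkn2a (1.20), Cdkn2d (0.79) and Rbl1 (1.12) were above each of the 5 clusters. The lower genes include the antiproliferative Btg1, with 328, 259, 285 and 298 CPM against 610, 536, 532 and 659 (-0.96). Ypel3 (-0.94), Txnip (-0.89), Pdcd4 (-0.76), Zfp36l1 (-0.75), Slfn2 (-0.71), Btg2 (-0.68) and Foxp1 (-0.61) were below each of the 5 clusters, and the glucocorticoid-induced Tsc22d3 (-0.61) was not. Cdkn1b, which encodes p27 and marks resting T cells, had -0.50 and was not called.

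Among G1 genes, Cdk2 (1.60), E2f3 (0.72) and Cdk4 (0.63) were higher and the D-type cyclin gene Ccnd2 was lower (-0.68). Ccnd2 had 158, 182, 235 and 139 CPM in cycling cells and 275, 275, 354 and 260 in the others. Of the 12 counted genes of that list 25% were thus higher and 8.33% lower, against 9.21% and 3.34% of all genes. The remaining 8 were not called, and the list median was 0.12.

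Of 7443 genes outside the cycle lists, 6.06% were higher and 3.44% lower. The highest was Mxd3, a MAX partner of the MAD family, with 64.7, 65.7, 88.5 and 70.1 CPM against 1.82, 0.614, 1.49 and 0.755 (3.68). Its relative Mxd4, chosen after its values were seen, went the other way, with 53.4, 34.5, 62.8 and 46.5 CPM against 115, 81.7, 141 and 105 (-1.10), and was below each of the 5 clusters. Next were Gm20628 (3.04), Sapcd2 (2.78), the spindle gene Spag5 (2.61), Tcf19 (2.54), Cip2a, an inhibitor of the phosphatase PP2A (2.5), the helicase gene Brip1 (2.41), Poc1a (2.36) and the kinase gene Mastl (2.30). Prr11, Kntc1, Arhgap19, Pif1, Spdl1 and Mtfr2 followed with 2.27 to 2.16. Several of these have known roles in the centrosome, spindle or DNA repair and were simply absent from the lists.

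Beyond the cycle itself, RNA splicing was the list with the largest share of genes called higher. Of 44 counted splicing factors, 16 (36.4%, against 9.21% of all genes) were higher and none lower. All 16 were above each of the 5 clusters. Alyref, an mRNA export adaptor, had 392, 394, 386 and 425 CPM against 143, 138, 126 and 151, a log2 ratio of 1.47. Hnrnpab (1.25), Snrpd1 (1.10) and Srsf2 (1.0) followed, and the list median was 0.53 with library medians of 0.46 to 0.54. For these 4 genes no library of cycling cells overlapped the others.

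Some genes of DNA methylation and Polycomb silencing were higher. Ezh2, the catalytic subunit of Polycomb complex 2, had 162, 182, 219 and 177 CPM against 44.2, 41.2, 52.5 and 41.7 (1.96). Cbx5 (HP1α) had a ratio of 1.5 and the maintenance methyltransferase gene Dnmt1 1.30, followed by Cbx3 (0.99), Suz12 (0.95), Rbbp7 (0.93) and Rbbp4 (0.80). Of 22 counted genes these 7 were higher (31.8%, against 9.21% of all genes) and Jarid2 (-0.60) was lower, and the median was 0.08. The ratios of Cbx5, Dnmt1 and Suz12 against TIGIT+ Teff alone were smaller, at 0.43, 0.51 and 0.22.

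Among the metabolic lists outside nucleotide synthesis, glycolysis had the largest share of genes called higher. In glycolysis 5 of 16 counted genes were higher (31.25%, against 9.21% of all genes), with a median of 0.33. Tpi1, the triose phosphate isomerase, had 254, 255, 164 and 255 CPM against 117, 99.8, 85.4 and 109 (1.14). Slc16a3, a lactate exporter, had 0.77, Gapdh 0.67, Ldha 0.66 and Pgk1 0.64. Of 78 nuclear-encoded respiratory chain genes only Atpif1 (0.71) was higher (1.28%), and the median was 0.20. Fh1 (0.68) and Idh3a (0.62) were higher among 22 genes of the tricarboxylic acid cycle (9.09%), and Idi1 (1.0) and Cyp51 (0.81) among 18 genes of sterol and fatty acid synthesis (11.1%). The 13 mitochondrially encoded genes, with a median of -0.06, held no gene past the limit in either direction. Proteasome genes had a median of 0.33 with 0 of 37 called. The chaperone genes Hsp90aa1 (0.78), Hsp90b1 (0.75) and Ppia (0.71) were among 5 of 30 higher (16.7%, against 9.21% of all genes).

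Ribosomal protein genes took 22.1% of the UMIs of cycling cells, and 21.3%, 25.4%, 18.8% and 23.7% in libraries 1 to 4. The share was 20.6% in TIGIT+ Teff, with a range over libraries of 18.4% to 25.4%, and 26.2% to 32.5% in the other 4 Teff and Tex clusters. Against the 5 clusters together the median ratio of the list was -0.28 with 1 of 83 lower, Rps27 (-0.76). The list of ribosome biogenesis factors had a median of 0.07, with Pa2g4 (0.68) the only gene called among 34. On the scale of UMIs per cell the ribosomal protein median was 0.45, so cycling cells held more of these transcripts per cell.

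**Figure D3:**
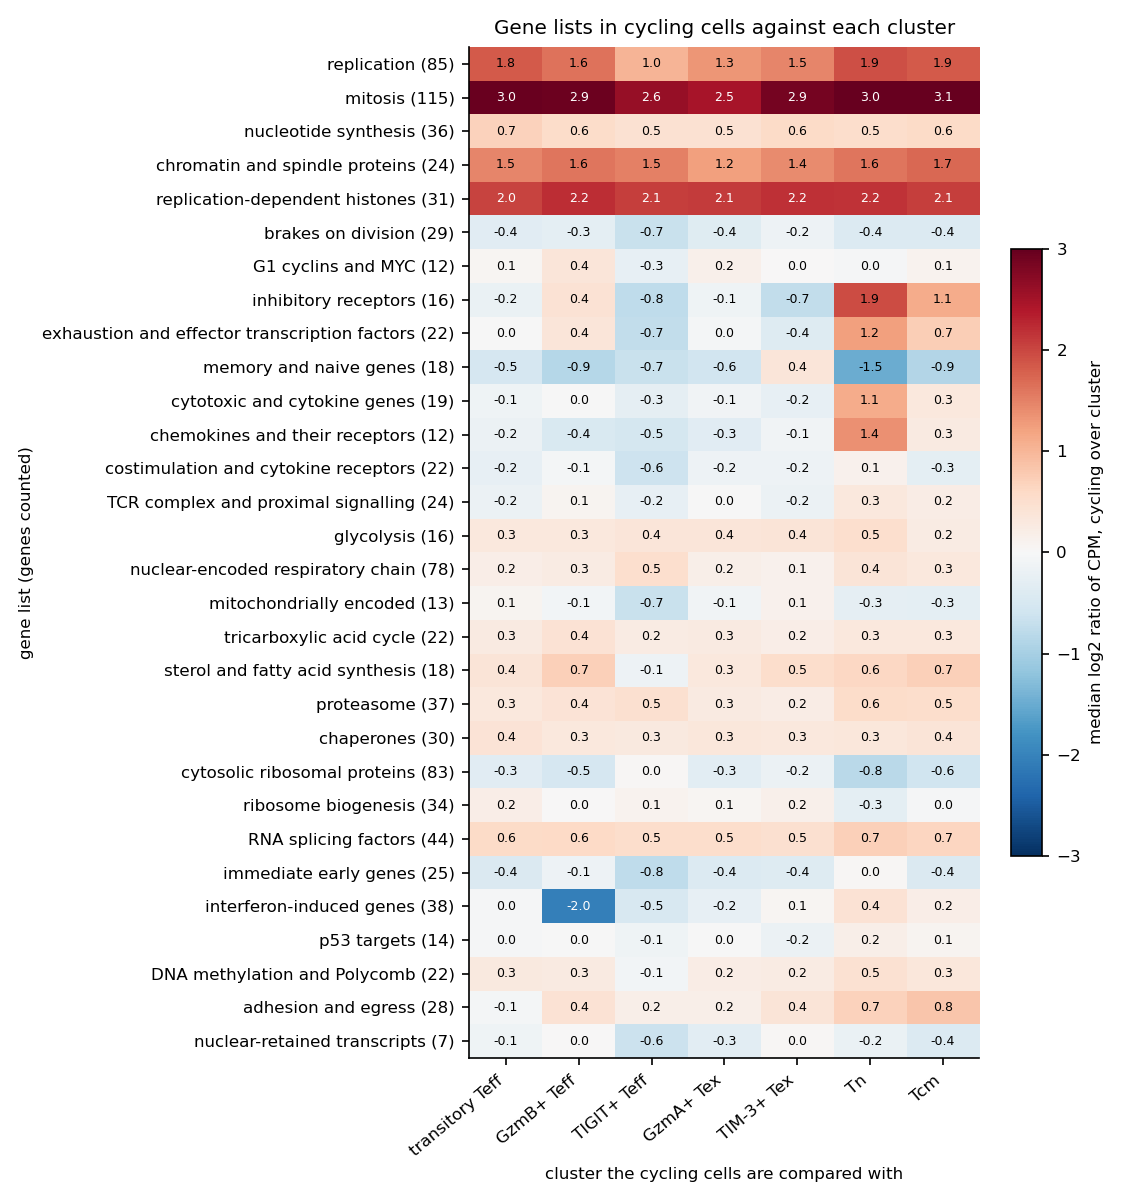
Median log2 ratio of CPM of each gene list (rows, with the number of genes counted) in cycling cells over each of 7 other clusters (columns), as the median over 4 libraries, with no error shown. The 5 lists of replication, mitosis, nucleotide, spindle and histone genes are above 0 in every column, while inhibitory receptors turn from 1.95 against Tn to -0.77 against TIGIT+ Teff, and interferon-induced genes are lowest against GzmB+ Teff.

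Among inhibitory receptors, transcription factors and cytotoxic genes of T cells, no gene was called higher, against 9.21% of all genes. The shares called lower were 12.5%, 9.09% and 5.26% in that order, against 3.34% of all genes. Of 16 counted inhibitory receptor genes none was higher and 2 were lower, with a median of -0.35. Pdcd1 had 315, 223, 184 and 272 CPM in cycling cells against 351, 296, 221 and 313 (-0.22). Tigit had 312, 230, 179 and 302 CPM against 377, 314, 223 and 403 (-0.36). Lag3, another inhibitory receptor, had 354, 276, 206 and 251 against 479, 406, 289 and 373 (-0.52). Each was lower in each library, within the 1.5-fold limit, and both genes called lower, Lilrb4a (-0.78) and Vsir, which encodes VISTA (-0.65), were below each of the 5 clusters. Against TIGIT+ Teff alone the list median was -0.77, against TIM-3+ Tex -0.74, against GzmB+ Teff 0.44 and against Tn 1.95.

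Counted per cell instead, the receptors were not lower. A cycling cell held 3.75 Pdcd1 UMIs and a cell of the other 5 clusters 2.63, and the corresponding values were 3.85 and 2.98 for Tigit and 4.03 and 3.44 for Lag3. The median of all counted genes on this scale was 0.73 (log2). Of the 258 genes lower in CPM, 98 also had fewer UMIs per cell in each library, 19 had more in each, and 141 differed in direction between libraries. Whether fewer transcripts per RNA or more RNA per cell is the change cannot be told apart from CPM alone.

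Exhaustion and effector transcription factors had 0 higher and 2 lower of 22, with a median of -0.22. Tox had 353, 283, 292 and 282 CPM against 406, 329, 291 and 330 (-0.21), with the libraries overlapping between groups. Maf (-0.64) and Stat4 (-0.59) were called lower. Cytotoxic and cytokine genes had 0 higher and 1 lower of 19, the granzyme gene Gzmm (-0.89). Gzma, a granule protease gene, had 904, 748, 439 and 614 CPM against 1069, 605, 383 and 536 (0.19), lower than the others in library 1 and higher in the other 3. Gzmb had 463, 457, 1025 and 372 CPM against 463, 353, 690 and 433 (0.18), with its highest level in library 3 in both groups. Ifng (-0.47), Prf1 (-0.26) and Fasl (-0.48) were lower in each library without being called. In the TCR complex and its proximal signalling 0 of 24 genes were called, and Cd8a had a ratio of -0.10 and Cd3e of -0.27.

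Genes of memory and naive cells were lower, depending on the cluster compared. Of 18 counted, 9 were lower (50%) and none higher, with a median of -0.56. Over all genes 3.34% were lower and 9.21% higher. Tcf7, the gene of TCF-1 that marks stem-like and memory T cells, had 49.2, 57.1, 44.9 and 55.5 CPM in cycling cells against 88.8, 96.6, 111 and 117 (-0.90), with no overlap. Il7r had 18.7, 37.6, 23.7 and 22.7 CPM against 57.1, 72.5, 107 and 66.8 (-1.38). Against TIM-3+ Tex alone both turned, to 0.37 for Tcf7 and 0.38 for Il7r, and the list median was 0.37. Against transitory Teff alone they were -1.24 and -1.83. Of the 9 lower genes 3 were below each of the 5 clusters, namely the repressor gene Bach2 (-0.90), the survival gene Bcl2 (-0.65) and Foxp1.

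Chemokine genes were also lower, and Ccl5 was the most abundant of all 258 lower genes. Ccl5 had 11545, 10378, 9729 and 11138 CPM against 23774, 22228, 19836 and 22391, a log2 ratio of -1.03 that ranged only from -1.10 to -1.01 over libraries and was negative against each of the 5 clusters. Xcl1, which attracts cross-presenting dendritic cells, had 175, 129, 128 and 273 CPM against 404, 268, 195 and 696 (-1.11), lower in each library although the ranges overlapped. Ccl4 (-0.68) was -1.82 against TIM-3+ Tex and 0.33 against GzmB+ Teff. The chemokine receptors Cxcr6 (-0.65) and Ccr2 (-0.70) were lower. In all, 7 of 12 counted genes of the list were lower (58.3%, against 3.34% of all genes). Of the 7, Ccl5, Xcl1 and Cxcr6 were below each of the 5 clusters.

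Immediate early genes are induced within minutes of stimulation or handling. Of 25 counted, 10 were lower (40%, against 3.34% of all genes), 9 of them below each of the 5 clusters. Junb had 292, 347, 348 and 407 CPM against 461, 609, 649 and 756 (-0.84), and Jun had -0.78. The early activation marker Cd69 had 108, 108, 125 and 118 CPM against 171, 195, 210 and 195 (-0.71). The median was -0.49, and Ier3 had the lowest value among called genes of the list (-0.97).

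Interferon-induced and macrophage transcripts were lower against the 5 clusters together, with the largest difference against 1 cluster each. Of 38 interferon-induced genes 21 were lower (55.3%, against 3.34% of all genes), with a median of -0.65. Ifit3 had 15.6, 14.7, 26.2 and 11.2 CPM against 63.5, 85.7, 104 and 85.4 (-2.01). Against GzmB+ Teff, in which this list summed to 11992 to 13135 CPM against 3024 to 4095 in cycling cells, its median was -2.05, and against transitory Teff, TIGIT+ Teff, GzmA+ Tex and TIM-3+ Tex it was -0.04, -0.49, -0.25 and 0.06. Only 6 of the 21 were below each of the 5 clusters. Rsad2, Usp18, Cxcl10, Mx1 and Isg15 were likewise lower than GzmB+ Teff by -3.42 to -3.76. Lyz2, Apoe, Cd74 and H2-Aa, all transcripts of macrophages and other antigen-presenting cells, were -1.26 to -1.68 against the 5 clusters together and -3.55 to -4.09 against GzmA+ Tex. The whole macrophage list of 16 genes summed to 286 to 371 CPM in the cycling cells of a library, 181 to 210 CPM in Tn and 1976 to 2654 CPM in GzmA+ Tex, and no member was at 0 in cycling cells. Against GzmA+ Tex the median of its 11 counted genes was -3.47, whereas cycling cells were above the other clusters, by 0.80 for transitory Teff, 0.54 for GzmB+ Teff, 0.11 for TIGIT+ Teff and 0.61 for TIM-3+ Tex. The part of these transcripts in the other results was not tested.

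Other cell types left little trace. The summed CPM of B cell genes was 6.97 to 8.27 in the cycling cells of a library, of CD4 and regulatory T cell genes 1.16 to 2.24, of stem and progenitor genes 0.177 to 2.14 and of immature T cell genes 0.530 to 3.23. NK cell genes summed to 136 to 178 CPM against 153 to 228 in the other Teff and Tex cells, and erythroid genes to 13.6 to 49.9 against 42.3 to 71.9. Plasma cell genes summed to 150 to 214 CPM, and to 185 to 223 CPM in Tn. At 0 in cycling cells were 3 of the 4 stem and progenitor genes analysed, 2 of 5 immature T cell genes and 1 gene each of the plasma cell, erythroid, neutrophil and CD4 lists.

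Some genes were low against every cluster compared and had no list of their own. These were picked by the leading-gene rule or, where said, after their values were seen. Tcp11l2 had 15, 14.7, 15.9 and 16.7 CPM against 48.5, 43.4, 50.1 and 59.4 (-1.41). Kdm5b, the gene of a histone H3 demethylase, had 9.46, 11.9, 10.1 and 6.58 CPM against 30.1, 24.8, 38.4 and 30.7 (-1.40). Seen afterwards were the lymphotoxin gene Ltb (-0.91), with nearly equal ratios of -0.92 to -0.79 over libraries, Hopx (-0.95), the survival kinase gene Pim2 (-0.94), the PI3K inhibitor gene Pik3ip1 (-0.97) and Hbp1 (-0.88), an HMG-box repressor of cycle genes. In the separate list of adhesion and egress, 6 of 28 counted genes were higher (21.4%) and 2 lower (7.14%), with a median of 0.095. Over all genes these shares were 9.21% and 3.34%. The higher genes were Lgals1 (0.95), Vim (0.90), Crip1 (0.79), Itgb7 (0.72), Anxa2 (0.71) and Lgals3 (0.60), and the lower ones Ly6c2 (-0.86) and Icam1 (-0.59). Only 1 of the 2 lower genes was below each of the 5 clusters, as Ly6c2 was 0.37 against TIM-3+ Tex alone. For Vim the values were 1242, 1157, 1487 and 1344 CPM against 701, 582, 846 and 641, with no overlap.

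The mean profiles were compared without the genes of the cycle lists, while cycle genes absent from those lists stayed in. By correlation, cycling cells were closer to 4 of the 5 other Teff and Tex clusters than to Tcm or Tn in each library. Pearson's r across 7393 genes within a library, which are not independent, was 0.938 to 0.964 with transitory Teff, 0.938 to 0.962 with GzmA+ Tex, 0.909 to 0.964 with TIM-3+ Tex and 0.917 to 0.938 with GzmB+ Teff. With TIGIT+ Teff it was 0.905 to 0.941, and in libraries 2 and 4 (0.907 and 0.905) this was below both Tcm and Tn. Those libraries held only 50 and 59 TIGIT+ Teff cells. Libraries 1 and 3, with 436 and 271, gave 0.941 and 0.935, above both Tcm and Tn. The lowest value with TIM-3+ Tex came from library 3, with 31 such cells. The effect of cell number on r was not tested. With Tcm r was 0.904 to 0.925 and with Tn 0.887 to 0.921. The ranges of the first 3 overlapped throughout, so no single nearest cluster can be named. The median absolute log2 ratio over the same genes gave another order in library 3. There it was 0.413 for Tcm, below 0.422 for TIM-3+ Tex and 0.427 for GzmB+ Teff.

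T cell receptors (TCRs) showed which other cells were of the same clones. A TCR was called in 995 of the 1928 cells (51.6%), which held 420 clonotypes when counted within libraries. Of these 995 cells, 715 (71.9%, interval 69.0% to 74.6%) had a sister of the same clonotype among the other Teff and Tex clusters of their library, 60.1% in library 2 and 70.3% to 76.8% in the others. The 1767 sister cells outside the cycling cluster lay in transitory Teff (49.4%), TIM-3+ Tex (26.4%), TIGIT+ Teff (11.3%), GzmA+ Tex (6.40%) and GzmB+ Teff (5.26%), with 0.736% in Tn and 0.453% in Tcm. Libraries differed: TIGIT+ Teff held 40.9% of the sisters in library 3, the most of any cluster there, and 13.6%, 2.05% and 2.75% in libraries 1, 2 and 4, and TIM-3+ Tex held 36.4%, 20.5%, 5.58% and 26.2% in libraries 1 to 4. Transitory Teff held 38.6% to 62.6%. Among all cells with a TCR outside the cycling cluster, the corresponding shares were 20.7%, 8.25%, 5.23%, 3.36%, 7.21%, 16.5% and 38.8%. Tn and Tcm are part of this base, and 97.0% and 91.9% of their cells with a TCR were in clones of 1 cell. A larger share among sisters is therefore no enrichment among Teff and Tex cells. On this base GzmB+ Teff alone of the Teff and Tex clusters had a smaller share among sisters, pooled and in each library. Shares among Teff and Tex cells only were not compared.

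The clone with most cycling cells in each library is shown by the CDR3 of its chains as deposited, with the codons of the first cysteine and last phenylalanine in capitals. The CDR3 is the stretch that contacts the antigen peptide and serves as the tag of a clone.
Library 1 TRA CDR3, TRAV16N and TRAJ49: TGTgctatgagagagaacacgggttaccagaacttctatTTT
Library 1 TRB CDR3, TRBV1 and TRBJ2-1: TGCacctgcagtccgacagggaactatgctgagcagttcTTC
Library 2 TRA CDR3, TRAV9-1 and TRAJ45: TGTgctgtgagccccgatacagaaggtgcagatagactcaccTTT
Library 2 TRB CDR3, TRBV17 and TRBJ2-7: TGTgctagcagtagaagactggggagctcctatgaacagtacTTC
Library 3 TRA CDR3, TRAV9-1 and TRAJ23: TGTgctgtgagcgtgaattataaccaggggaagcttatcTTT
Library 3 TRB CDR3, TRBV26 and TRBJ2-1: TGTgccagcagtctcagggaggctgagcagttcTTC
Library 4 TRA CDR3, TRAV9-4 and TRAJ50: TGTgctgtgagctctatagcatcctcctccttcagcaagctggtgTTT
Library 4 TRB CDR3, TRBV16 and TRBJ2-7: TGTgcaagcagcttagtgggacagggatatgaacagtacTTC
These clones had 39 cycling cells of 170 (22.9%), 13 of 110 (11.8%), 44 of 75 (58.7%) and 28 of 133 (21.1%) in libraries 1 to 4. Their intervals were 16.9% to 30.0%, 6.45% to 19.4%, 46.7% to 69.9% and 14.5% to 29.0%. The clone of library 3 was cycling most and had no TIM-3+ Tex member, while that of library 1 had 74. Library 3 held only 22 TIM-3+ Tex cells with a TCR in all, and library 1 held 269.

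Clones differed in how much of them was cycling. Over 33 clones of at least 20 cells, the cycling share had a median of 22.9% and ran from 0% to 63.6%. The medians by library were 25.3% (12 clones), 8.89% (6), 45.2% (4) and 21.1% (11). Within library 4, 1 clone had no cycling cell and another 55.3%. Cells with a missing or second chain count as a separate clone here, so some of the 33 clones share chains. The library 4 clone without cycling cells (33 cells) shared its TRA and TRB with a clone of 75 cells. That larger clone had a second TRA and 1 cycling cell. By TRB CDR3 alone the median share was 22.2%. Cells of a clone are not independent, and intervals cover counting error only.

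**Figure D4:**
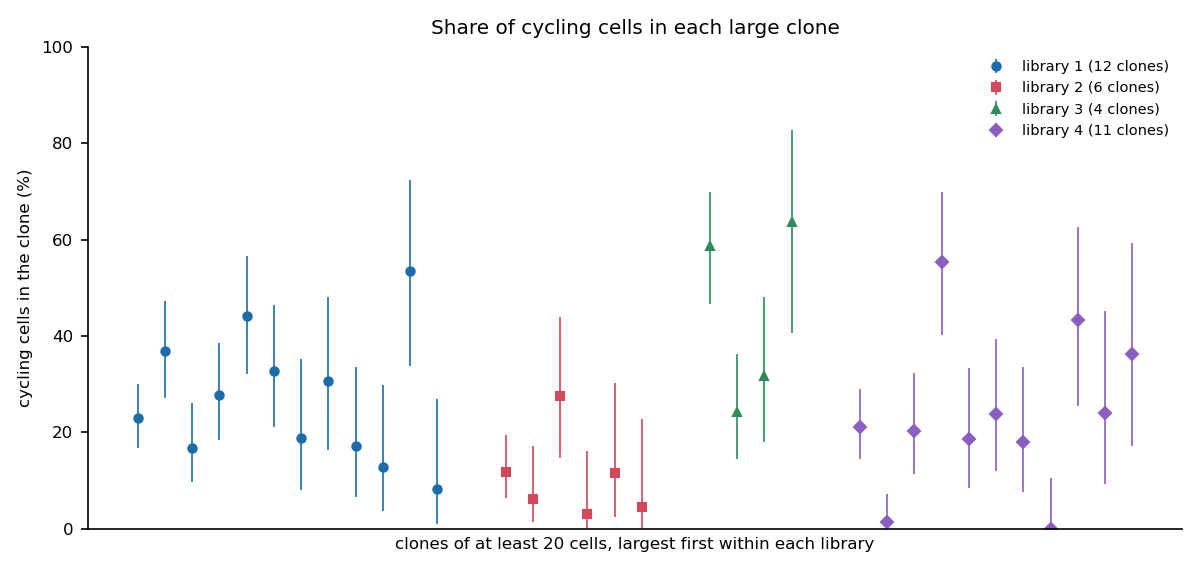
Percent of cycling cells in each of 33 clones of at least 20 cells with a TCR (points, largest clone first in each library), with exact binomial 95% intervals as bars. Shares run from 0% to 63.6%, and the 4 clones of library 3 lie between 24.2% and 63.6%. Clones that differ only by a missing or second chain are shown apart.

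Sister cells allowed the cycling state to be compared at a fixed TCR. In 18 clones with at least 10 cycling cells and 10 cells in the other Teff and Tex clusters, taken over all 4 libraries (374 cycling and 900 other cells), Ccl5 was lower in cycling cells in 18 of 18 clones, with a median log2 ratio of -1.68. Btg1 (-1.27), Hopx (-1.29), Ltb (-1.17), Junb (-1.04), Ccl4 (-1.30), Cxcr6 (-0.85) and Tigit (-0.70) were also lower in each of the 18. Pdcd1 (-0.60), Lag3 (-0.80) and Tcf7 (-1.76) were lower in 17. Ezh2 (1.92), Tpi1 (1.21) and Vim (0.92) were higher in 18. All of these are ratios of CPM, and UMIs per cell were not compared within clones. These genes were chosen after their values over whole clusters were known, and clones share libraries. Some of these clones also share chains and differ only by a second one, so the clones are not all separate.

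The cluster of the sisters mattered for some genes and not for others. Against transitory Teff sisters (15 clones), Tcf7 was lower in 15, with a median of -2.34. Against TIM-3+ Tex sisters (10 clones), it was higher in 5 and lower in 5, with a median of -0.03. Havcr2 was higher than in transitory sisters in 13 of 15 (1.36) and lower than in TIM-3+ sisters in 8 of 10 (-0.79). Gzma was 1.91 against transitory and -0.70 against TIM-3+ sisters, with a wide range over clones in both. For these genes the cycling cells lay between both clusters or at the level of TIM-3+ Tex. Ccl5 (-1.45 and -1.83), Tigit (-0.76 and -0.57), Btg1 (-1.29 and -1.18) and Ltb (-1.13 and -1.13) were below both in CPM in each clone.

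**Figure D5:**
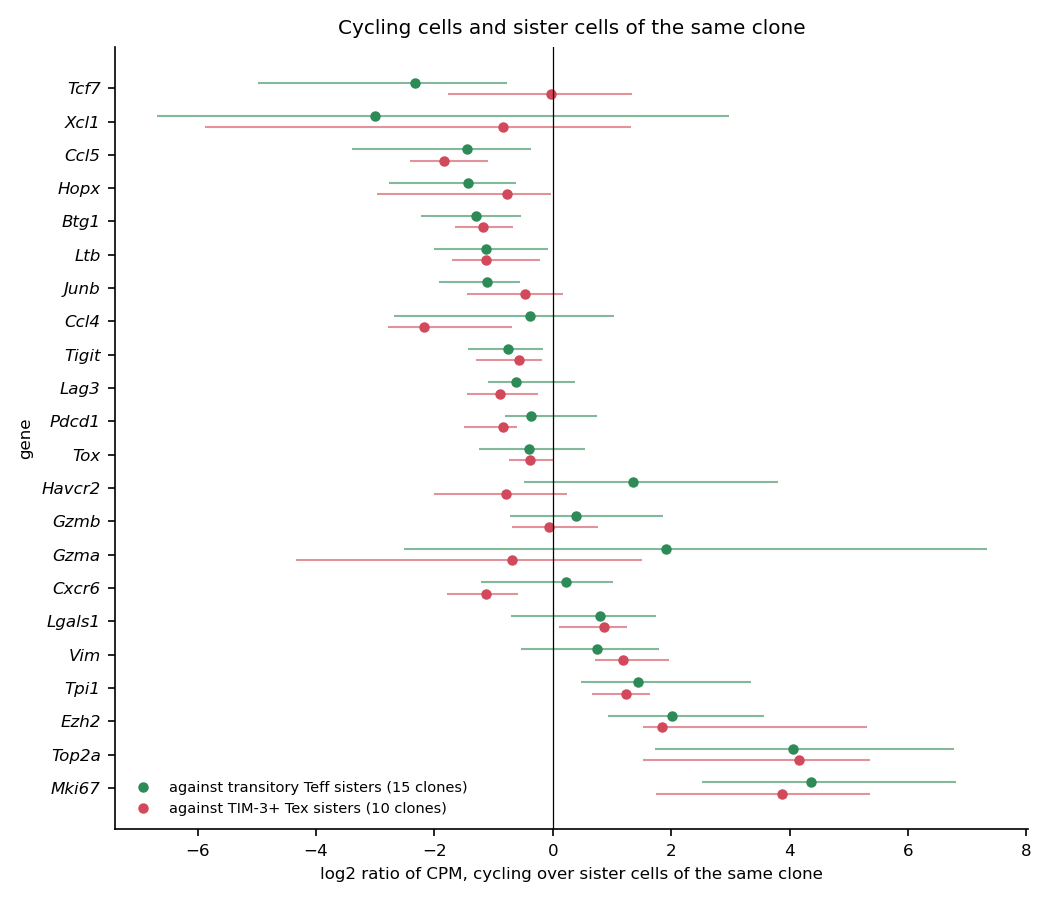
Log2 ratio of CPM (x axis, 5 CPM added) of 22 genes in cycling cells over sister cells of the same clone, for transitory Teff sisters (15 clones) and TIM-3+ Tex sisters (10 clones). Points are medians over clones and lines run from the lowest to the highest clone. Tcf7 and Havcr2 differ between the 2 kinds of sister, while Ccl5, Btg1, Ltb and Tigit lie below 0 for both.

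The cycling cells of the 4 libraries differed for a minority of genes. Of 3083 genes with at least 50 CPM, 165 differed more than 2-fold between the highest and lowest library and 0 more than 4-fold. Mki67 led, and Ly6a, a surface antigen induced by interferon, had 336, 346, 751 and 206 CPM. Ly6c2 had 464, 603, 1294 and 371 CPM, and S100a4, a calcium-binding protein gene, 203, 302, 634 and 222. Library 3 was highest in each. The other Teff and Tex cells of the same libraries had 420, 456, 796 and 309 CPM of Ly6a, in the same order of libraries. The long transcript of Kmt2a had 142, 92.6, 219 and 77.8 CPM and followed the order of Mki67. Whether treatment, cell makeup or RNA quality moved them cannot be told apart with unnamed single libraries.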

How the data were processed

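CD8+ T cells from BM were profiled in 4 droplet libraries. Per the labels, reads were processed with Cell Ranger 7.00 against mm10. The authors downsampled reads across libraries and kept cells of 2500 to 25000 UMIs with under 15% mitochondrial RNA and Cd3e/g and Cd8a expression. The deposited expression table holds raw UMI counts with no normalization (17561 genes, 11754 cells). The deposited cell table gives a fraction of mitochondrial UMIs and the authors' Monocle3 cluster name. The deposited TCR table gives chains for 7961 of these cells. A total of 0 columns of per-sample values were left unused.

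Cluster UMIs were summed per library, expressed as CPM and compared as log2 ratios with 5 CPM added, for genes of at least 10 CPM in the mean of both groups. Calls needed 1.5-fold in the median and 1 direction in 4 libraries. Thinning to 2500 UMIs used seed 11. Shares have exact binomial 95% intervals. Depth was 15556967 to 38440687 UMIs per library. No doublets were removed. Symbols and coordinates are from GENCODE M21 (GRCm38). Promoters are from RefSeq (GRCm38.p6).

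Named genes are the 4 markers, a fixed set of T cell identity genes, the 15 highest and 15 lowest genes outside the cycle lists that kept 1 direction in each library (without variable TCR and immunoglobulin genes), and up to 6 members of each list with the largest ratio. Some genes within this rule are not reported here. Members and lists were chosen with earlier results of these data known. The calculation was tested on simulated data. Alternatives changed the reference cells, depth, denominator, cell labels, pseudocount, filter and libraries. Software was pandas 2.3.3, numpy 2.4.6 and scipy 1.17.1 under Python 3.11.15, with figures drawn in matplotlib 3.10.9. Treatments were not compared.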

Additional observations from a re-analysis of the deposited data

How the results depend on the processing

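Leaving out 1 library at a time gave 694 to 744 higher and 255 to 291 lower genes. List medians then ran from 1.51 to 1.59 for replication, 2.71 to 2.82 for mitosis, -0.38 to -0.31 for inhibitory receptors, -0.65 to -0.52 for memory and naive genes, -0.62 to -0.61 for chemokines and -0.71 to -0.59 for interferon-induced genes. The share of cycling cells ran from 14.6% to 17.7%, the share past the naive bounds from 96.8% to 97.2% and the median share in large clones from 20.3% to 24.0%. No paired analysis was possible because each group was 1 library. Other choices moved some values, and the cause was not tested unless it lies in the choice itself. A minimum of 50 CPM gave 317 higher and 97 lower genes among fewer tested, a 2-fold limit 372 and 37, and a pseudocount of 20 CPM 107 lower genes. Against TIM-3+ Tex alone the medians were -0.74 for inhibitory receptors, 0.37 for memory and naive genes, -0.11 for chemokines and 0.0315 for interferon-induced genes, so the second and the last reversed. Here the filter on low values was applied anew for each reference, which left 35 interferon-induced genes against TIM-3+ Tex and 36 against transitory Teff in place of 38. There the nuclear-retained list (0.0448), Tcf7 (0.37), Ifit3 (0.23), Ifit1 (0.34), Usp18 (0.32), Cxcl10 (0.54), Il7r (0.38), Cd74 (1.01), Mx1 (0.24), Isg15 (0.34), Satb1 (0.12), Ly6c2 (0.37), Gzmm (0.76), Ccr2 (0.18) and Gadd45g (0.38) reversed too. Against transitory Teff alone the medians were 1.84 for replication, -0.21 for inhibitory receptors, -0.21 for chemokines and -0.0742 for interferon-induced genes, and Ifit1 (0.0212), Usp18 (0.45), Cxcl10 (0.28), Cd74 (0.86), Mx1 (0.0152) and Isg15 (0.54) reversed. Against all cells outside the cluster they were 1.65 for replication, 0.24 for inhibitory receptors, -1.0 for memory and naive genes, -0.28 for chemokines and -0.35 for interferon-induced genes, and inhibitory receptors, exhaustion and effector factors (0.12), cytotoxic genes (0.12) and Ccl4 (0.0111) reversed. A pseudocount of 1 CPM gave 1.70 for replication, 3.71 for mitosis and -0.67 for chemokines, and 20 CPM gave 1.01, 1.72 and -0.56, with -0.27 for inhibitory receptors and -0.51 for interferon-induced genes. A minimum of 50 CPM gave 3.32 for mitosis and -0.0183 for the G1 list, which reversed, and chemokines had -0.66 at a minimum of 50 or 2 CPM. Summing UMIs over libraries gave chemokines -0.57, as did a total without cycle genes. Among cells with a TCR call only, 12.5% were cycling. With each clonotype of these cells counted once per library and cluster, the cycling cluster held 7.35% of the entries. The share past the naive bounds was 99.7% with the 95th percentile, 98.4% without thinning and 92.0% for cells chosen by cluster number. Among the other values recomputed, 2986 stayed within the spread between libraries, 632 moved beyond it and 25 reversed.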

Other observations

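TCR calls fell with the depth of a cell, and less so in cycling cells than in other Teff and Tex cells of the same depth. Cycling cells were divided at 10721 and 17153 UMIs into ranges of 642, 643 and 643 cells. A TCR was called in 71.2%, 55.7% and 28.0% of them (95% exact intervals 67.5% to 74.7%, 51.7% to 59.6% and 24.6% to 31.6%). In the same ranges the other Teff and Tex cells had 75.8%, 28.1% and 7.71%, and Tn and Tcm cells together 82.6%, 69.2% and 36.0%. Clonal shares among cycling cells therefore rest more on cells of low UMI count than the expression values do.

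A second TRB chain was recorded in 7.88%, 18.2% and 24.4% of cycling cells with a TCR in these ranges, and in 8.44%, 34.0% and 33.3% of other Teff and Tex cells. Leaving out cells with a pair of TRB chains gave 713 higher and 248 lower genes. Whether such cells held more than 1 cell was not tested.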
